A study of Mus musculus with 11 samples.

Results

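The 10 immediate early genes described here were Fos, Fosb, Jun, Junb, Jund, Egr1, Atf3, Ier2, Ier3 and Dusp1, 10 of the 32285 genes in the count matrices. They were chosen by gene symbol. Single-cell RNA sequencing of mouse right brain tissue gave 11 libraries, each from 1 mouse. The groups compared were sham + WT (n = 3), sham + Lrg1-/- (n = 3), MCAO/R + WT (n = 2) and MCAO/R + Lrg1-/- (n = 3). MCAO/R is middle cerebral artery occlusion followed by reperfusion, a model of ischemic stroke in which a filament blocks the artery for a time and is then withdrawn. The wild-type mice were C57BL/6 males of 8 to 10 weeks, and Lrg1-/- mice were conventional knockouts, lacking Lrg1 in every cell, which the methods describe as backcrossed to a C57BL/6N line and, in the same place, as 3 months old, with no sex given. The methods name several reperfusion times without saying which applied to these libraries, and the discussion speaks of 1 hour without saying whether this is the occlusion or the reperfusion. Lrg1 encodes a secreted leucine-rich glycoprotein, and no Lrg1 UMI (unique molecular identifier, 1 counted transcript molecule) was found in endothelial cells of either Lrg1-/- group, against 13.8 CPM (counts of UMIs scaled by all UMIs of those cells in a library) in sham + WT and 492 CPM in MCAO/R + WT.

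Immediate early genes are switched on within minutes of a stimulus, from preformed factors and without new protein synthesis. Fos and Jun proteins pair to form AP-1, a transcription factor that carries signals from growth factors, cytokines, calcium and cell stress to later genes. In the brain they are best known as marks of neuronal activity and of injury. Warm enzymatic digestion of tissue, as used to make these cell suspensions, can also raise them in microglia and vascular cells. A level here may therefore include transcript gained in the tube, and that part was not measured.

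After the filters and removal of predicted doublets, 124491 cells were kept, of 155804 barcodes. Cells were clustered and named from fixed marker genes into 19 types, with 28329 cells left unnamed, 22065 of them from MCAO/R + Lrg1-/- libraries. Total UMIs per library ran from 37159497 in sham + Lrg1-/- replicate 5 to 171813031 in MCAO/R + Lrg1-/- replicate 5. Several properties of the libraries moved with the groups. WT libraries held 0 to 9 red blood cells each and Lrg1-/- libraries 81 to 2166. MCAO/R + Lrg1-/- replicates 1 and 2 carried Xist at 355 and 468 CPM with Y-linked transcripts at 0.436 and 0.506 CPM, while the other 9 libraries had Xist at or below 1.18 CPM and Y-linked transcripts between 208 and 486 CPM, so 2 of the 3 libraries of that group carried a female pattern. The 3 sham + Lrg1-/- libraries and MCAO/R + Lrg1-/- replicate 1 held round numbers of barcodes (15500, 9000, 5650 and 8500) with lowest UMI totals of 551 to 770, against 500 in the other libraries, so genotype and cell calling cannot be told apart for those libraries. Within Lrg1-/- mice cell calling moved in part with stroke, since MCAO/R replicates 2 and 5 were not of this kind. Below, raised or lowered by stroke names the direction of a difference between groups, not its cause. Microglia, endothelial cells, oligodendrocytes, macrophages, neurons and choroid plexus epithelial cells of the groups came in large part from different clusters. For example, cluster 1.1 held the most sham + WT microglia, cluster 1.5 the most sham + Lrg1-/-, cluster 1.0 the most MCAO/R + WT and cluster 1.3 the most MCAO/R + Lrg1-/-. Of the neurons, cluster 11.0 held 255 sham + WT and 220 MCAO/R + WT cells with 22 and 5 of the Lrg1-/- groups, and cluster 11.1 held 0 and 2 WT with 70 and 395 Lrg1-/- cells. Comparisons within a type therefore set different clusters side by side.

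Regulatory sequence upstream of these genes is shown for 3 members of different roles, the AP-1 subunits Fos and Junb and the phosphatase Dusp1, each holding a motif described next. The cyclic AMP response element (CRE, TGACGTCA) and the AP-1 site (TGANTCA) are bound by CREB/ATF and AP-1 factors, and the CArG box by serum response factor. Promoters of 8 members were found in the RefSeq table of GRCm38.p6, which gives 250 bases before to 50 after the gene start recorded there. Searched on both strands, the full CRE was in 1 member (Dusp1) and in 1.79% of all 32851 promoters. The AP-1 site and the CArG box were in 0 members, against 7.81% and 1.63% of all promoters. The CRE core, TGACG or CGTCA, was searched after those results were seen and was in 5 of the 8 members (Fos, Fosb, Junb, Atf3 and Dusp1), against 20.8% of all promoters; the full CRE holds both core forms. Capitals mark the matches.
Fos, chr12:85473640-85473939, plus strand: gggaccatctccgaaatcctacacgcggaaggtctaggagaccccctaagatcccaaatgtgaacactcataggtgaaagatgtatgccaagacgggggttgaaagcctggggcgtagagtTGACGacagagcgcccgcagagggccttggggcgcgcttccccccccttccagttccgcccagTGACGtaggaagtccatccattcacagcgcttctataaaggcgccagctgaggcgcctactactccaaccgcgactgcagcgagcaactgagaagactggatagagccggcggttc
Junb, chr8:84978699-84978998, minus strand: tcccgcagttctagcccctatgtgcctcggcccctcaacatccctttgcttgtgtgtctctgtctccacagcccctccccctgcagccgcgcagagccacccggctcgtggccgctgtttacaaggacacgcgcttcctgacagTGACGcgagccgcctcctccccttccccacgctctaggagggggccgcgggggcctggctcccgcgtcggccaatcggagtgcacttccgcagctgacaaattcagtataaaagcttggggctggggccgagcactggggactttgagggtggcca
Dusp1, chr17:26508423-26508722, minus strand: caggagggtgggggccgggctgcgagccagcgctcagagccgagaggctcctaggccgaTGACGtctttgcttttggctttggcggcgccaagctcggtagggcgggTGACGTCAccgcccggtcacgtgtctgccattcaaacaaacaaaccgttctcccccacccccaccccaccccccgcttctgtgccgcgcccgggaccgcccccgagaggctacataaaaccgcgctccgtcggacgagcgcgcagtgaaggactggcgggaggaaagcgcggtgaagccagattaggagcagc
The core began 129 and 66 bases before the start of Fos, 106 before that of Junb, and at 191, 143 and 140 before that of Dusp1, whose full CRE began at 143. A match is a description of the letters in this window. Sequence outside it was not searched, so a count of 0 does not mean that a gene lacks the site. In mm10 the gene bodies of 6 further members lie at chr4:95049034-95052222 (Jun), chr7:19302696-19310051 (Fosb), chr8:70698949-70700616 (Jund), chr1:191170296-191218039 (Atf3), chr8:84661331-84662852 (Ier2) and chr17:35821684-35822923 (Ier3). These ends need not be the starts in the RefSeq table. Its window lies inside the gene body for Atf3 and for Dusp1 (chr17:26505590-26562128), and before it for Jund.

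Microglia, macrophages and vascular cells held far more of these transcripts than oligodendrocytes, astrocytes or red blood cells. The 10 members together made up 3.83% ± 0.115 of all UMIs in microglia of sham + WT mice (SD, n = 3), 3.73% in endothelial cells, 3.60% in macrophages and 3.15% in vascular smooth muscle cells. The share was 0.832% in choroid plexus epithelial cells, 0.597% in astrocytes and 0.325% in oligodendrocytes.

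**Figure D1:**
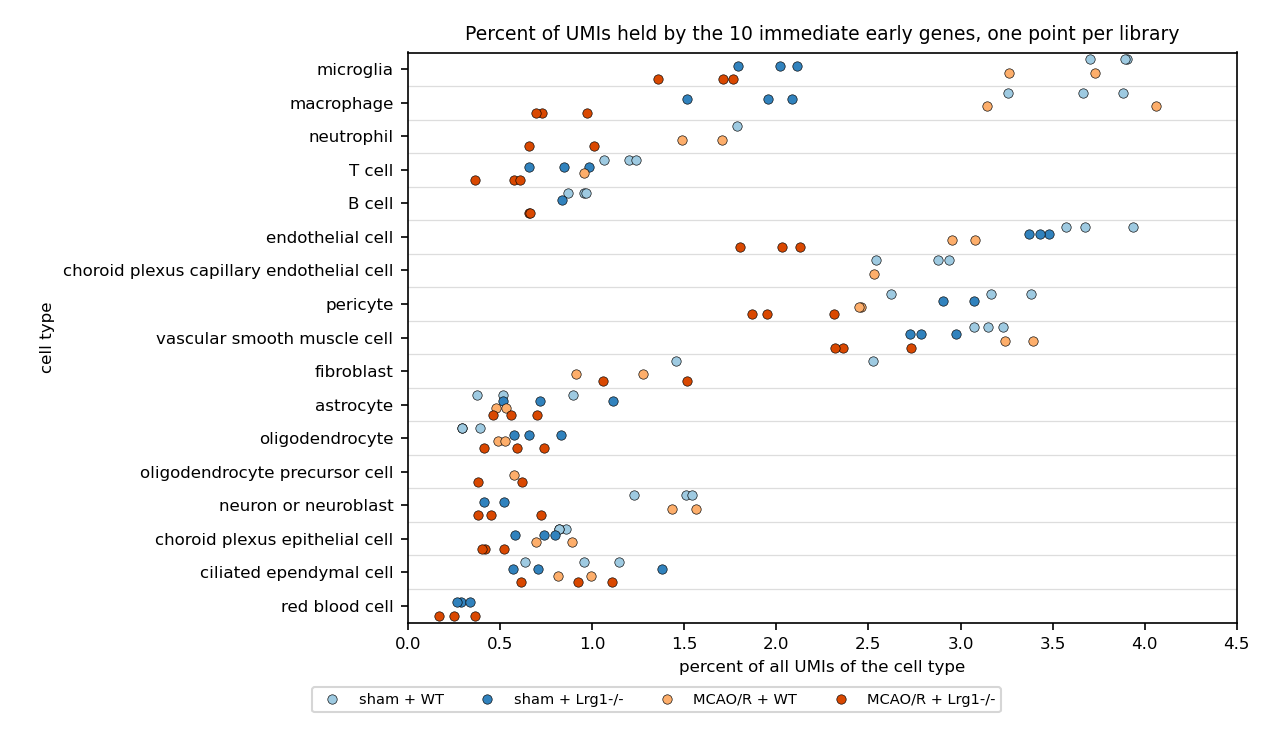
Percent of all UMIs held by the 10 immediate early genes (x axis) in each cell type (y axis), with 1 point per library and a colour per group. Microglia of the 3 sham + WT libraries lie between 3.70% and 3.91% and those of the 3 MCAO/R + Lrg1-/- libraries between 1.36% and 1.77%.

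Fos, which encodes the classical AP-1 partner of Jun, was highest in sham + WT in vascular smooth muscle cells (8959 ± 503 CPM), pericytes (8351 ± 1047) and endothelial cells (7839 ± 421), whose values lie within or near each other's spread. It was 6051 ± 939 CPM in macrophages and 5871 ± 357 in microglia, and 609 ± 105 in oligodendrocytes. Egr1, a zinc finger transcription factor induced with Fos, was highest in microglia at 3366 ± 101 CPM, above vascular smooth muscle cells (2483 ± 248.6) and above choroid plexus capillary endothelial cells (2459 ± 131), and the last pair did not differ beyond their spread. Dusp1, a phosphatase that switches off MAP kinases, led in endothelial cells (2500 ± 78.3 CPM) and macrophages (2189 ± 357). Ier3, a small protein that modulates survival signalling, ranked differently, with macrophages at 957.5 ± 55.2 CPM, endothelial cells at 820 ± 77.3 and oligodendrocytes at 23.2 ± 1.94.

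In microglia and macrophages most of these genes were lower in Lrg1-/- than in WT mice, both under sham and after MCAO/R. A gene was called where the Benjamini-Hochberg adjusted p over all genes of that cell type was under 0.05, by edgeR's quasi-likelihood test on UMIs summed per library, and the natural-log fold change was over 0.25 in size. Under sham, 38 of 120 gene and cell type pairs were called between genotypes, 13 higher and 25 lower in sham + Lrg1-/-, against 12.8% of all genes and cell types called, 6.64% higher and 6.15% lower. After MCAO/R, 43 of 140 pairs were called, 2 higher and 41 lower, against 16.6% of all, 8.79% higher and 7.77% lower. The median log2 difference over the pairs was -0.11 under sham and -0.25 after MCAO/R, while the median of all genes lay within 0.1 of 0 in every cell type but T cells. B cells, T cells, neutrophils, oligodendrocyte precursors and choroid plexus capillary endothelial cells had 1 library in 1 of the groups, and the spread of that group was then taken from the others.

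In microglia, the resident immune cells of the brain, Jun fell furthest among the members called. It measured 10750, 11020 and 10880 CPM in sham + WT and 4453, 3937 and 4369 CPM in sham + Lrg1-/-. After MCAO/R it measured 7511 and 9500 CPM in WT and 2520, 2733 and 2880 CPM in Lrg1-/-. Every Lrg1-/- library lay below every WT library. The log2 difference was -1.55 ± 0.13 (SE; edgeR adjusted p = 5.47e-06) under sham and -1.76 ± 0.14 (adjusted p = 8.11e-06) after MCAO/R.

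Fos in microglia followed the same order of groups. It was 5463, 6023 and 6126 CPM in sham + WT against 2578, 2457 and 2851 CPM in sham + Lrg1-/-, and 5650 and 5955 CPM in MCAO/R + WT against 1851, 2353 and 2543 CPM in MCAO/R + Lrg1-/-. The groups of each pair did not overlap, and log2 differences were -1.35 ± 0.15 (edgeR adjusted p = 4.14e-05) and -1.48 ± 0.16 (adjusted p = 7.63e-05). Egr1 went from 3366 ± 101 CPM (SD) to 1745 ± 257 under sham and from 3018 ± 283 (n = 2) to 1517 ± 68.7 after MCAO/R. Altogether 8 of 10 members were called lower in microglia under sham, where 14.2% of all genes were, with Ier2 and Ier3 uncalled, and 10 of 10 after MCAO/R, where 11.5% of all genes were. Between these genotypes the 10 members fell over a log2 range from -0.66 for Ier2 to -1.76 for Jun after MCAO/R. Without MCAO/R + Lrg1-/- replicates 1 and 2, the libraries with Xist, most but not all members were called lower after MCAO/R. No share of all genes was computed for this fit. That fit leaves 1 MCAO/R + Lrg1-/- library, whose spread is assumed to be that of the other groups. In every fit that left out 1 library 7 of the 8 calls under sham and 9 of the 10 after MCAO/R held. Heat shock genes in microglia summed to 5636 CPM in sham + WT, 4298 in sham + Lrg1-/-, 4202 in MCAO/R + WT and 5931 in MCAO/R + Lrg1-/-, so they moved with the members under sham and opposite to them after MCAO/R. Microglial median depth was 2940 to 3391 UMIs per cell in sham + Lrg1-/- and 7406 to 13140 in the other groups. With every cell thinned to 1000 UMIs before the sums, Jun differed by -1.83 under sham and -1.80 after MCAO/R, and all members called between genotypes in microglia were called again.

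**Figure D2:**
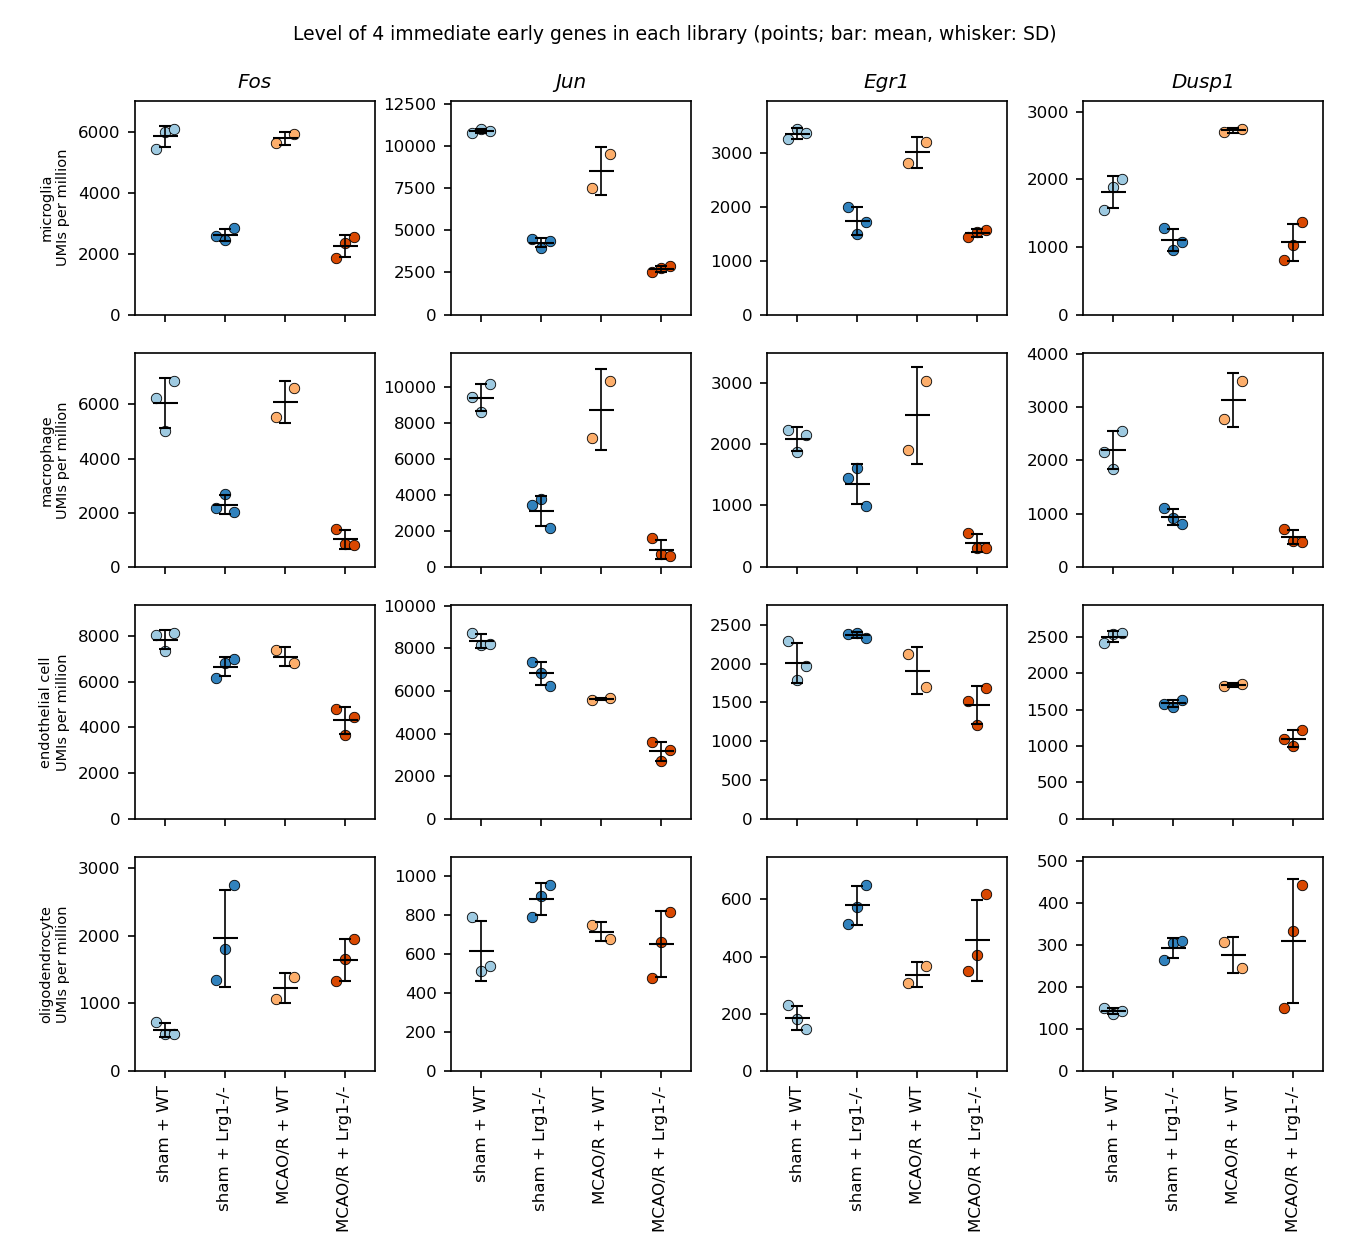
CPM (y axis, from 0) of Fos, Jun, Egr1 and Dusp1 in microglia, macrophages, endothelial cells and oligodendrocytes, with a point for each library, the group mean as a bar and the SD as a whisker. In microglia and macrophages all Lrg1-/- libraries lie below all WT libraries for Fos, whereas in oligodendrocytes the 3 sham + WT libraries are the lowest.

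Macrophages, the border and infiltrating phagocytes, showed the same direction. Fos was 5529 and 6627 CPM in MCAO/R + WT and 1399, 822 and 808 CPM in MCAO/R + Lrg1-/-, and Jun was 7151 and 10350 CPM against 1572, 704 and 579 CPM. No Lrg1-/- library reached the lowest WT value, and the log2 differences were -2.51 ± 0.22 (edgeR adjusted p = 2.93e-05) for Fos and -3.15 ± 0.32 (adjusted p = 5.60e-05) for Jun. Of 10 members 9 were called lower, where 14.8% of all genes were, all but Ier3 (-0.75 ± 0.32). Under sham 6 of 10 were called lower, namely Fos, Fosb, Jun, Atf3, Ier2 and Dusp1, where 2.26% of all genes were. Of these 6 calls 4 remained, without Ier2 and Fosb, when sham + Lrg1-/- replicate 1 or 5 or any 1 sham + WT library was left out. The make-up of the class moved with the groups: clusters that scored as border-associated macrophages held 92.3% of the macrophages in MCAO/R + WT, 83% in sham + WT, 75.1% in sham + Lrg1-/- and 19.9% in MCAO/R + Lrg1-/-, the rest scoring as monocytes. These shares are pooled over cells. By library they were 53.85%, 24.98% and 9.375% in MCAO/R + Lrg1-/-, against 90.91% and 94.51% in MCAO/R + WT. Within border-associated clusters alone, a comparison chosen after seeing the data, all 10 members were called lower after MCAO/R (8.21% of all genes), Fos by -2.11 ± 0.17, and 4 under sham (1.86%). In monocyte-scored clusters 3 were called lower under sham, Fos, Jun and Atf3 (0.217%). After MCAO/R 4 were called lower there, Fos, Jun, Egr1 and Dusp1 (0.342%), and 6 were uncalled, among them Ier2 at -0.62 ± 0.28 and Jund at -0.58 ± 0.26. That comparison rests on 1 MCAO/R + WT library of 25 cells, assumed to vary like the libraries of the other groups, so it has no replicate check of its own on the WT side.

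After MCAO/R, most members were also lower in endothelial cells and in the neuron or neuroblast class of Lrg1-/- mice. In endothelial cells, which line the vessels, 8 of 10 members were called lower after MCAO/R, where 13% of all genes were. Of these 8 calls 5 remained without MCAO/R + WT replicate 1. Atf3, an AP-1 partner induced by stress, was 1679 and 1636 CPM in MCAO/R + WT and 694, 887 and 871 CPM in MCAO/R + Lrg1-/- (log2 -1.05 ± 0.15, edgeR adjusted p = 0.000429). Under sham 3 of 10 endothelial members passed the test, Dusp1 (-0.67 ± 0.10) and Atf3 (-0.46 ± 0.14) lower and Ier3 (0.47 ± 0.12) higher, where 16.2% of all genes were called. Of these 3 calls 1 (Dusp1) remained without sham + Lrg1-/- replicate 1 or without sham + WT replicate 2 or 3. Fewer endothelial members were called after MCAO/R without MCAO/R + Lrg1-/- replicates 1 and 2, in a fit with 1 library left in that group. No share of all genes was computed for that fit. In neurons or neuroblasts 7 of 10 members were called after MCAO/R, where 10.9% of all genes were, and 6 of 10 under sham, where 5.78% were, each time with Ier3 the single member called higher. Of the 7 calls after MCAO/R 5 remained without MCAO/R + WT replicate 1. These cells came almost wholly from different clusters in the genotypes, as given above, and no comparison within a cluster was made. Their median depth also moved with genotype. After MCAO/R it was 12340 and 13540 UMIs per cell in WT and 3761 to 5395 in Lrg1-/- libraries. Under sham it was 9683 to 13680 in WT and 4036 and 5367 in the Lrg1-/- libraries used. The sham + Lrg1-/- values rest on 2 libraries of 127 and 25 neurons, and without the first of them 3 of the 6 calls remained (Fos, Jun and Jund). Jun there was 3226 and 3199 CPM in MCAO/R + WT and 451, 671 and 1022 CPM in MCAO/R + Lrg1-/-. The log2 difference of neuronal Jun was -2.04 ± 0.29 (edgeR adjusted p = 0.000946). Vascular smooth muscle cells gave 4 calls after MCAO/R, Fos, Jun, Atf3 and Dusp1, all lower, where 8.28% of all genes were, and 3 under sham, Fos and Dusp1 lower and Ier3 higher, where 10.7% of all genes were called. T cells gave 1 lower under sham, Jun, where 6.63% of all genes were lower, and astrocytes 1 higher, Ier3, where 3.41% were higher. The astrocyte call was lost in 6 of the 11 fits that left out 1 library, among them that without sham + Lrg1-/- replicate 2.

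In oligodendrocytes, the myelin-forming cells, most members were higher in Lrg1-/- mice under sham. Fos was 730, 553 and 544 CPM in sham + WT and 1341, 1800 and 2743 CPM in sham + Lrg1-/-, with no overlap (log2 1.70 ± 0.24, edgeR adjusted p = 0.000881). Fosb, a Fos relative, rose by 1.84 ± 0.24 and Egr1 by 1.65 ± 0.21. Altogether 7 of 10 were called higher under sham (Fos, Fosb, Junb, Egr1, Ier2, Ier3 and Dusp1), where 7.68% of all genes were, and 1 after MCAO/R, Fosb (0.92 ± 0.27), where 14.5% were. Of the 7 calls under sham 5 held in every fit that left out 1 library, all but Ier3 and Dusp1. Without MCAO/R + Lrg1-/- replicates 1 and 2, more members were called after MCAO/R, in a fit with 1 library in that group. No share of all genes was computed for that fit, so its calls are not read as a result about the members. The Fosb call after MCAO/R was lost without MCAO/R + Lrg1-/- replicate 5 or either MCAO/R + WT replicate. Transcripts of other cells rose in the same oligodendrocyte libraries: haemoglobin from 20.5 to 12750 CPM, and Ttr with Enpp2 (choroid plexus) from 2302 to 12950 CPM between sham + WT and sham + Lrg1-/-. Haemoglobin and Ttr with Enpp2 were also above WT in Lrg1-/- microglia (21.5 and 22330 CPM haemoglobin under sham in WT and Lrg1-/-). Their part in these results was not tested.

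Choroid plexus epithelial cells, which make cerebrospinal fluid, gave 4 members called lower after MCAO/R, Fos, Fosb, Jun and Egr1, where 13.3% of all genes were, and 3 under sham, Ier3 (1.47 ± 0.23) and Junb (0.89 ± 0.21) higher and Dusp1 lower, where 24.1% of all genes were called. Jun fell from 1357 and 1881 CPM in MCAO/R + WT to 347, 530 and 703 CPM in MCAO/R + Lrg1-/-. The WT values rest on 109 and 28 cells. Without either MCAO/R + WT library only the call of Jun remained, and fewer members were also called without MCAO/R + Lrg1-/- replicates 1 and 2.

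**Figure D3:**
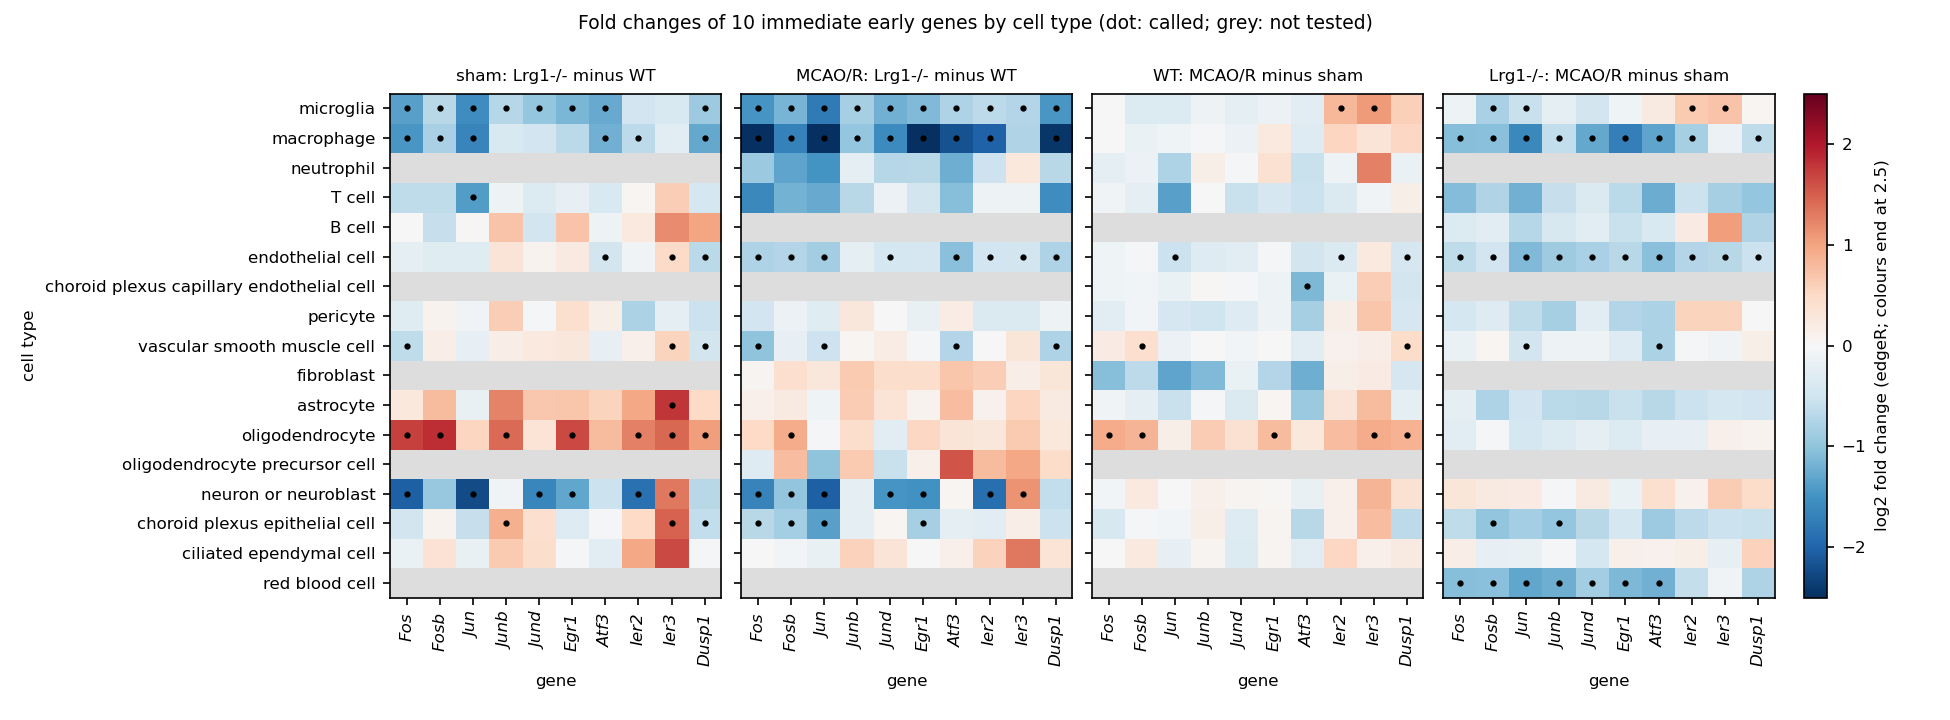
Log2 fold changes (colour, with blue lower) of the 10 genes (x axis) in each cell type (y axis) for 4 comparisons, with a dot where the difference was called and grey where it was not tested. Microglia and macrophages are blue between genotypes in both conditions, while in oligodendrocytes under sham 7 members are called higher.

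In WT mice, few of these genes passed the test after MCAO/R. Of 140 pairs 13 were called, 9 higher and 4 lower, against 9% of all genes and cell types, 4.61% higher and 4.39% lower, so the share of members called lay at the background. The calls held in every fit that left out 1 library for 3 of the 13, Ier2 and Ier3 in microglia and Atf3 in choroid plexus capillary endothelial cells. The last rests on 1 MCAO/R + WT library of 25 cells, which no fit could leave out. In microglia 2 of 10 rose, Ier2, a nuclear early response protein, and Ier3, where 12.9% of all genes rose. Ier3 was 325, 322 and 293 CPM in sham + WT and 652 and 645 CPM in MCAO/R + WT, without overlap (log2 1.06 ± 0.16, edgeR adjusted p = 0.000382). Ier2 rose by 0.83 ± 0.20 (adjusted p = 0.00898), while Fos was at -0.01 ± 0.17 and Jun at -0.35 ± 0.15.

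In endothelial cells 3 of 10 fell after MCAO/R in WT mice, Jun (-0.54 ± 0.13), Dusp1 (-0.42 ± 0.11) and Ier2 (-0.37 ± 0.12), where 10.3% of all genes fell. In oligodendrocytes 5 of 10 rose, Fos, Fosb, Egr1, Ier3 and Dusp1, by 0.78 to 0.93 on the log2 scale, where 10.8% of all genes rose. None of these 5 remained without sham + WT replicate 2 or 3, 1 without MCAO/R + WT replicate 2 and 3 without MCAO/R + WT replicate 1, sham + WT replicate 1 or any 1 sham + Lrg1-/- library, and none of the 3 endothelial calls remained without either MCAO/R + WT library. Fos there was 1064 and 1382 CPM in MCAO/R + WT, above all 3 sham + WT libraries given above. Macrophages and choroid plexus epithelial cells had 0 members called by edgeR, with 2 and 3 members at an unadjusted p under 0.05 and 1 and 0 called by DESeq2. The other calls were Fosb and Dusp1 higher in vascular smooth muscle cells, where 7.26% of all genes were, both lost without either MCAO/R + WT library, and Atf3 lower in choroid plexus capillary endothelial cells, where 0.745% of all genes were, with 1 stroke library. Heat shock genes, which warm digestion also raises, moved in this comparison: 1 of 166 pairs was called higher and 47 lower, led by Hspa1b, lower in 9 of 14 cell types, then Hspa1a, Hsph1 and Dnajb1, each lower in 6. Their part in the result was not tested.

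In Lrg1-/- mice, most of these genes were lower after MCAO/R than after sham in endothelial cells and macrophages. MCAO/R + Lrg1-/- replicates 1 and 2 carried a female pattern, unlike the sham libraries. Cell calling and macrophage make-up also differed in part between these groups. These differences cannot be fully told apart from that of MCAO/R. Of 130 pairs 34 were called, 2 higher and 32 lower, against 11.8% of all, 6.37% higher and 5.46% lower. In endothelial cells all 10 fell, where 9.52% of all genes fell. Of these 10 calls 9 remained, without Fosb, when the fit left out any 1 sham + Lrg1-/- library, MCAO/R + Lrg1-/- replicate 1 or 2, or sham + WT replicate 1. Endothelial Jun was 7367, 6865 and 6260 CPM in sham + Lrg1-/- and 3600, 2703 and 3229 CPM in MCAO/R + Lrg1-/-, without overlap (log2 -1.11 ± 0.12, edgeR adjusted p = 0.000165). The others fell by between 0.48 (Fosb) and 1.05 (Atf3). In macrophages 9 of 10 fell, all but Ier3, where 12.7% of all genes fell. Macrophage Egr1 was 1451, 1615 and 989.6 CPM in sham + Lrg1-/- and 549, 299 and 302 CPM in MCAO/R + Lrg1-/- (log2 -1.70 ± 0.24, adjusted p = 0.000716). In border-associated clusters alone, 8 of 10 fell (3.18% of all genes), while in monocyte-scored clusters Jun and Egr1 fell (7% of all genes), Ier3 rose by 1.41 ± 0.33, and Fos was at -0.19 ± 0.30. Without MCAO/R + Lrg1-/- replicates 1 and 2, 1 library was left in that group, and no share of all genes was computed. Fewer members were then called in endothelial cells, macrophages, microglia, choroid plexus epithelial cells and red blood cells.

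In microglia of Lrg1-/- mice 4 of 10 were called, where 34.1% of all genes were called in either direction: Ier2 (0.65 ± 0.18) and Ier3 (0.71 ± 0.15) rose, and Fosb (-0.81 ± 0.20) and Jun (-0.56 ± 0.13) fell. Choroid plexus epithelial cells gave 2 lower, Fosb and Junb, where 0.744% of all genes fell, with 9 at an unadjusted p under 0.05 and 6 called by DESeq2. T cells had 0 called by edgeR, 7 at an unadjusted p under 0.05 and 2 called by DESeq2. All 10 members lay below 0 in both types. The choroid calls were both lost without sham + Lrg1-/- replicate 2 or 5 or MCAO/R + Lrg1-/- replicate 2. Vascular smooth muscle cells gave 2 lower, Jun and Atf3, where 6.82% of all genes fell (1, Atf3, without MCAO/R + Lrg1-/- replicate 5), pericytes had 0 called, 5 at an unadjusted p under 0.05 and 3 by DESeq2, and oligodendrocytes had 0 called by edgeR, with 1 at an unadjusted p under 0.05 and 0 by DESeq2. In red blood cells 7 of 10 were called lower, where 2.27% of genes fell. None of these calls remained without sham + Lrg1-/- replicate 1 or 2, and 1 remained without replicate 5. These cells held haemoglobin as 80.5% and 68.9% of their UMIs, and for all 10 members the plain CPM of the groups overlapped (Fos 404 to 589 CPM in sham + Lrg1-/- and 292 to 605 CPM in MCAO/R + Lrg1-/-). The normalization factors of that fit ran from 0.730 to 0.791 in sham and from 1.07 to 1.78 after MCAO/R. How far these calls rest on the scaling was not tested.

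The difference between the strokes' effects in the 2 genotypes was called for 3 of 110 pairs, all lower in Lrg1-/-, against 1.57% of all genes and cell types and 0.814% in that direction. DESeq2 called 17 pairs, 7 in endothelial cells, 7 in macrophages and 3 in oligodendrocytes, and 30 had an unadjusted p under 0.05 by edgeR. The shares of all genes just given belong to the edgeR calls, and none was computed for these other counts. The edgeR calls were Ier3 in endothelial cells (-0.94 ± 0.18, edgeR adjusted p = 0.0198), Ier2 in macrophages (-1.37 ± 0.25, adjusted p = 0.0370) and Egr1 in macrophages (-1.94 ± 0.34, adjusted p = 0.0326). Endothelial Ier3 was 897, 821 and 742 CPM in sham + WT, 969 and 931 CPM in MCAO/R + WT, 1256, 1076 and 1109 CPM in sham + Lrg1-/-, and 634, 704 and 784 CPM in MCAO/R + Lrg1-/-. Both macrophage values were uncalled in border-associated clusters alone, and none of the 3 was called in every fit that left out 1 library. In microglia 0 members were called by edgeR, 1 had an unadjusted p under 0.05 and DESeq2 called 0, so the lower level in Lrg1-/- microglia was not shown to change with stroke.

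The share of microglia with a detected Fos UMI was also lower in Lrg1-/- mice at equal depth. With every cell thinned to 1000 UMIs, a Fos UMI was found in 94.1% ± 0.938 of sham + WT microglia, 93.2% ± 2.12 of MCAO/R + WT, 77.3% ± 1.32 of sham + Lrg1-/- and 69.7% ± 6.38 of MCAO/R + Lrg1-/- (SD over libraries). Unthinned, at library medians of 2940 to 13140 UMIs per microglial cell, the shares were 99.6%, 99.8%, 94.95% and 96.6%. At least 5 of the 10 members were found in 98.2% of thinned sham + WT microglia and 83.1% of MCAO/R + Lrg1-/-, and in 90.97% and 40.3% of macrophages after MCAO/R in WT and Lrg1-/-.

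Red blood cells, which should hold little of these transcripts, gave a rough reference level in the Lrg1-/- libraries. A Fos UMI was found in 39.6% ± 7.30 of thinned red blood cells in sham + Lrg1-/- and 33.2% ± 11.4 in MCAO/R + Lrg1-/-, at median depths of 3085 to 9042 UMIs. The share in oligodendrocytes of the same groups was 67.3% and 66.4%. For NK cells, T cells, dendritic cells and oligodendrocyte precursors of MCAO/R + Lrg1-/- it was 33.2% to 39.9%, near that of the red blood cells. Neither expression nor its absence is read from that level. Haemoglobin took most UMIs of the red blood cells, and T cells of sham + WT mice stood at 58.5% ± 13.6, so whether free RNA accounts for these shares was not tested. In sham + WT the oligodendrocyte share was 39.6% ± 8.26 and no WT library held 20 red blood cells to give this reference.

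**Figure D4:**
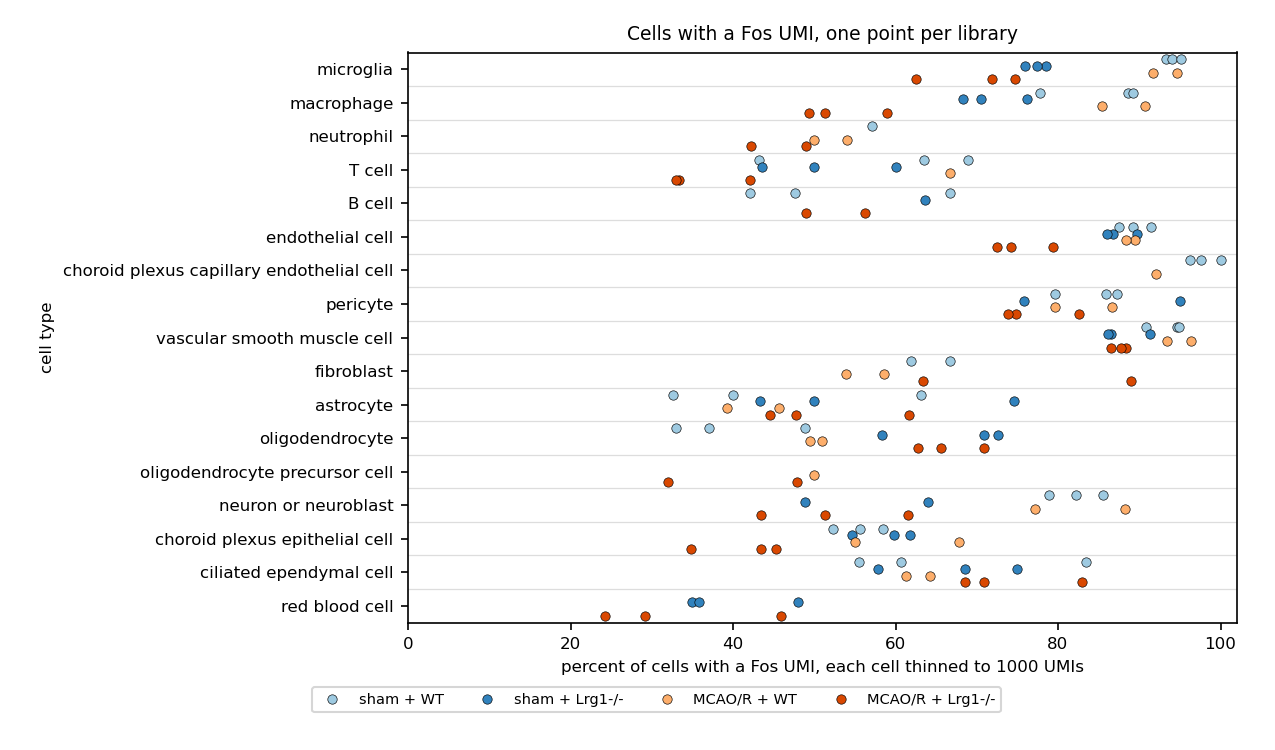
Percent of cells with a Fos UMI, each cell thinned to 1000 UMIs (x axis), by cell type (y axis), with a point for each library. Microglia of WT libraries lie at 91.7% to 95.1%, and red blood cells, present in the Lrg1-/- libraries, at 24.3% to 48%.

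Detection of members together with Fos differed by cell type. In endothelial cells each of the other 9 members was detected more often in cells with a thinned Fos UMI than in cells without, in 11 of 11 libraries: Egr1 in a median of 70.4% against 29.0%, Dusp1 in 70.8% against 29.8% and Fosb in 81.5% against 36.7%. In microglia Fosb (72.9% against 46.3%) and Dusp1 (70.1% against 45.0%) were higher in 11 of 11 libraries, Ier2 in 7 (50.4% against 50.8%) and Ier3 in 8 (24.3% against 23.9%). Red blood cells also had Jun (39.8% against 26.4%) and Junb (42.3% against 27.6%) more often with Fos in 6 of 6 libraries, but Ier3 in 2 of 6. Egr1 was higher in 0 of 2 libraries in B cells and in 1 of 3 in T cells. This is a description of detection in thinned cells.

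Across 145 library and cell type sums of 16 types, centred within type, 9 members followed the mean of the 10 with r between 0.82 (Junb) and 0.92 (Egr1), and Ier3 stood apart at 0.351. Each member is itself part of this mean, which raises its r by construction. The r of a member cannot therefore be set against that of a gene outside the list. The pairwise r was 0.892 for Fos with Jun and -0.043 for Jun with Ier3. Of genes outside the list, those most like the mean included Btg2, an antiproliferative early gene (0.840), Ier5 (0.799), Klf6 (0.791), Ccnl1 (0.786) and Klf4 (0.785), then Klf2, Ddx5, Rhob and Pnrc1. Outside every gene list used here were Ccnl1, Ddx5, Pnrc1 and Wsb1. The sums share libraries and depth, so these values are descriptions.

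Genes related to the members were counted in the same way, beside the 31.7% of member pairs called between genotypes under sham and 30.7% after MCAO/R and the 12.8% and 16.6% of all genes. Of the 15 other AP-1 subunits, 18 of 149 pairs were called higher and 8 lower in Lrg1-/- under sham (median log2 0.08), and 10 of 169 higher and 17 lower after MCAO/R (0.02). Of 28 other growth factor and stress induced early genes, 54 of 333 pairs were higher and 32 lower under sham, and 19 of 382 higher and 58 lower after MCAO/R. Stroke in Lrg1-/- mice lowered 52 of 357 pairs of that list and raised 20, led by Zfp36, which promotes decay of cytokine mRNAs, lower in 9 of 13 types, Klf2 in 7 and Ier5 in 5, and stroke in WT mice raised 40 of 388 and lowered 11.

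The other Egr, Nr4a and neuronal early genes gave 8 of 105 pairs higher and 5 lower between genotypes under sham and 11 of 116 higher and 5 lower after MCAO/R, 12.4% and 13.8% of the pairs, below those shares of all genes. Stroke lowered 10 of 120 of these pairs in WT and 13 of 107 in Lrg1-/- mice, and raised 2 and 3. Other dual specificity phosphatases gave 6 of 97 higher and 19 lower under sham, 8 of 103 higher and 13 lower after MCAO/R, and 7 of 107 and 9 of 99 lowered by stroke in WT and Lrg1-/- mice. Upstream kinases and factors gave 4 of 244 higher and 28 lower under sham and 15 of 278 higher and 23 lower after MCAO/R, 13.1% and 13.7%, and stroke raised 10 of 283 and 16 of 253 and lowered 7 and 9 in WT and Lrg1-/- mice. Stroke raised 19 of 175 pairs of the other AP-1 subunits in WT and 9 of 157 in Lrg1-/- mice, and lowered 5 and 4. Beside these stroke counts, 4.61% of all genes and cell types rose and 4.39% fell in WT mice, and 6.37% rose and 5.46% fell in Lrg1-/- mice. In either direction stroke called 10% of the Egr and Nr4a list, 8.41% of the phosphatases and 6.01% of the upstream list in WT mice against 9% of all, and 8.28% of the AP-1 list, 10.1% of the phosphatases and 9.88% of the upstream list in Lrg1-/- mice against 11.8% of all, near or below the background.

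Free RNA tracers, transcripts that leak from lysed cells, moved with genotype. Of these 76 of 96 pairs were called higher in Lrg1-/- under sham and 80 of 112 after MCAO/R, with haemoglobin Hbb-bt, Hbb-bs, Hba-a1 and Hba-a2 higher in every type tested and Ttr in 10 of 12 and 13 of 14. Between genotypes 1 tracer pair was called lower in Lrg1-/- under sham and 2 after MCAO/R. Stroke lowered 9 of 112 tracer pairs in WT mice, Ttr in 5 types, and 17 of 104 in Lrg1-/- mice, Mbp and Enpp2 in 5 each. It raised 0 tracer pairs in WT and 5 in Lrg1-/- mice. Heat shock genes gave 7 of 144 pairs higher and 28 lower in Lrg1-/- under sham, 32 of 162 higher and 3 lower after MCAO/R, and 8 of 155 raised and 11 lowered by stroke in Lrg1-/- mice. Between the strokes' effects, Hsp90aa1 was called higher in 2 types, Hspa1b, Hsph1 and Arc in 1 each, and Maff lower in 2. The part of these shifts in the members' results was not tested.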

How the data were processed

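The data are 10x Chromium 3′ single-cell libraries of right brain tissue. The authors deposited raw UMI counts per gene and barcode, made with Cell Ranger and STAR on mm10 per the submitters' processing notes; the matrix headers name version 7.0.1, the methods another, and the annotation release is not given in the sources used here. Cells needed over 500 genes, over 1000 UMIs and under 25% mitochondrial UMIs, and the 6% highest doublet scores per library were removed. Clusters (15 principal components, 3 neighbours per library, Leiden resolution 0.3, then a second split at 0.5) were named from markers by a rule set after clusters were seen: at least 3 markers 2-fold over the median cluster and a log2 margin of 1. A mean in place of the median had left some knockout clusters unnamed and was dropped. UMIs were summed per library and type (at least 20 cells) and fitted with edgeR 4.0.16 (TMM, filterByExpr), all 4 groups in one fit per type, since the mouse is the replicate. Samples were grouped by their labels. On simulated sums of the stroke comparison in WT mice, the fit recovered 62% of 2-fold and 100% of 4-fold changes in microglia (17708 genes) and 4% and 46% in T cells (8681 genes). Levels are CPM of plain totals, and counting error alone limits low values. Named genes were the 10 members, values in the 5 largest types, per comparison the 5 listed genes called in most types, and the 10 genes most like the member mean with the 5 in no list; 1 of these genes is not reported here. Members and lists were chosen with earlier results of these data known. Alternatives were DESeq2 1.42.0, RLE factors, no filter, a replicate block, other cell filters and clustering, and leaving out libraries. Shares over all genes were computed only for the main edgeR fit and the macrophage subsets. Counts from other fits, DESeq2 or an unadjusted p have no such share beside them. Egr1 and Ier2 promoters were not used here.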

Additional observations from a re-analysis of the deposited data

Results flagged for a closer look

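An edgeR interaction test called the difference between the strokes' effects in the 2 genotypes for 3 of 110 member and cell type pairs. Of all genes and cell types 1.57% were called, 0.814% lower in Lrg1-/-. Values are the effect in Lrg1-/- minus that in WT mice on the log2 scale. The 3 were Ier3 in endothelial cells at -0.94, Ier2 in macrophages at -1.37 and Egr1 in macrophages at -1.94. None of the 3 was called in every fit that left out 1 library. Pooled over libraries, border-associated-scored clusters held 19.9% of MCAO/R + Lrg1-/- macrophages and 92.3% of MCAO/R + WT macrophages. Within them alone the values were -0.89 for Ier2 and -1.16 for Egr1, neither called. The part of the class make-up in these values was not tested.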

How the results depend on the processing

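No called difference changed sign under any of the alternatives. Among 11448 comparisons of pairs uncalled in both fits, 696 differed in sign, which is counted as no change. Between genotypes, the counts of calls (43 after MCAO/R, 38 under sham) stayed within 1.5 times under every alternative. The other counts moved as follows. In WT mice, 13 calls for stroke became 24 with no filter on low counts, 6 with the replicate block, 8 with cells thinned to 1000 UMIs and 6 at Leiden resolution 1, and 4 to 19 when 1 library was left out (5 and 6 without sham + WT replicates 2 and 3, 6 and 4 without MCAO/R + WT replicates 1 and 2). In Lrg1-/- mice, 34 became 22 to 36 when 1 library was left out, with 22 without sham + Lrg1-/- replicate 2. For the difference between the strokes' effects, 3 became 13 with no filter, 0 with the replicate block, 17 with DESeq2, 6 with doublets kept, 8 thinned, 7 at Leiden resolution 1 and 0 to 10 when 1 library was left out (0 without sham + Lrg1-/- replicate 1 or sham + WT replicate 2 or 3, 1 without sham + Lrg1-/- replicate 2, sham + WT replicate 1 or MCAO/R + WT replicate 2, 5 without sham + Lrg1-/- replicate 5, and 10 and 6 without MCAO/R + Lrg1-/- replicates 1 and 5). Further alternatives were chosen after seeing the data: there it was 1 with border-associated macrophages only and 8 both without MCAO/R + Lrg1-/- replicates 1 and 2, which carry Xist, and without replicates 1 and 5, a pair left out before Xist was looked at and holding 1 of the Xist libraries. Both leave 1 library in that group. Without 1 and 2 the counts were 43 after MCAO/R, 47 under sham, 27 for stroke in Lrg1-/- and 18 in WT. Adding unnamed microglia-scored clusters, which held 26.5% of MCAO/R + Lrg1-/- microglia with them and 3.44% of MCAO/R + WT, left 43, 38, 3, 35 and 13 calls. The cause of these moves was not tested. Calls kept in every fit that left out 1 library were 32 of 43, 25 of 38, 20 of 34, 3 of 13 and 0 of 3. Same-numbered libraries did not deviate together in 13 pairs in each of 3 types (0 over 0.1). Deviations were taken from group means, which ties the libraries of a group to each other. The check therefore cannot exclude that numbers pair the mice, and no pairing was assumed. At Leiden resolution 1 a mixed cluster of MCAO/R + Lrg1-/- replicate 5 was named neutrophil. In T cells, with 1 MCAO/R + WT library of 21 cells, 4% of simulated 2-fold changes were recovered, and depth and that single library cannot be told apart.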
